A study of Homo sapiens with 6 samples.

Results

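The genes described here encode the 2 GSK3 kinases, beta-catenin and the proteins that control how long beta-catenin lives, and they were chosen by symbol as GSK3B, GSK3A, CTNNB1, APC, AXIN1, CSNK1A1, BTRC, TNKS, TNKS2 and CTNNBIP1. All 10 of the 10 listed symbols were found among the 28278 gene symbols of the series, and all 10 passed the filter on low counts that left 14409 genes. The RNA came from RKO, an established human colon carcinoma cell line, in 3 libraries labelled GSK3B knockout and 3 labelled GSK3B wild-type, with no other agent or allele named. The route to the knockout, and whether its cells were a clone or a pool, are not in the labels. Nothing shows that the replicates were separate cultures, and p-values therefore rest on a spread between libraries that may be technical.

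In cells without a Wnt signal, beta-catenin is held by a cytoplasmic destruction complex built on the scaffold proteins AXIN1 and APC. Casein kinase 1 alpha (CSNK1A1) places a priming phosphate on beta-catenin, GSK3 adds further phosphates, and the ubiquitin ligase subunit beta-TrCP (BTRC) then recognises the protein for destruction by the proteasome. Tankyrases (TNKS and TNKS2) mark AXIN for degradation, and ICAT (CTNNBIP1) blocks the binding of beta-catenin to its TCF partners in the nucleus. Messenger RNA counts measure none of these protein events directly.

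Total counts ran from 32379369 to 33558362 per library. Over all 6 libraries the members had between 387 counts (CTNNBIP1) and 14419 counts (CTNNB1). Of 10 colon epithelial markers 5 reached 1 CPM (counts scaled to a library total of 1000000) in a library, among them CDX2, KRT8 and KRT18, while CDH1, LGALS4 and CEACAM5 were listed at 0 in all 6. Summed, they ran from 139 to 144 CPM in knockout libraries and from 136 to 143 CPM in wild-type libraries. Within this list EPCAM had 1.04 to 1.11 CPM in knockout and 2.40 to 4.28 CPM in wild-type libraries, with no overlap. The 7 fibroblast markers summed to 1.03 to 1.23 CPM in knockout libraries and to 2.31, 3.03 and 6.07 CPM in wild-type replicates 1 to 3. Among them PDGFRB had 0.56 to 0.792 CPM in knockout libraries and 1.61, 2.14 and 2.01 CPM in wild-type replicates 1 to 3. COL1A2, COL3A1 and DCN had 23, 18 and 25 counts in wild-type replicate 3 and at most 2 in any other library. Wild-type replicate 3 also stood furthest from the other libraries of its group, with a median absolute log2 difference over all tested genes of 0.12 from replicate 1 and 0.10 from replicate 2, against 0.07 for each pair of knockout libraries.

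Of the 10 members 4 were lower in the knockout (GSK3B, TNKS2, CTNNBIP1 and TNKS), 1 was higher (APC) and 5 did not pass the test (GSK3A, CTNNB1, AXIN1, CSNK1A1 and BTRC). The test was edgeR's quasi-likelihood test over all genes with Benjamini-Hochberg adjustment and a threshold of 0.05. Of all tested genes 13.5% passed it, 7.18% lower and 6.36% higher. DESeq2 and limma-voom called the same 5 members in the same directions. The median log2 fold change of the members was -0.08, and that of all tested genes was 0.00. The count of members called was 3 without knockout replicate 2, without knockout replicate 3 or without wild-type replicate 2, and 4 without wild-type replicate 3. GSK3B and TNKS2 passed in every fit that was run.

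**Figure D1:**
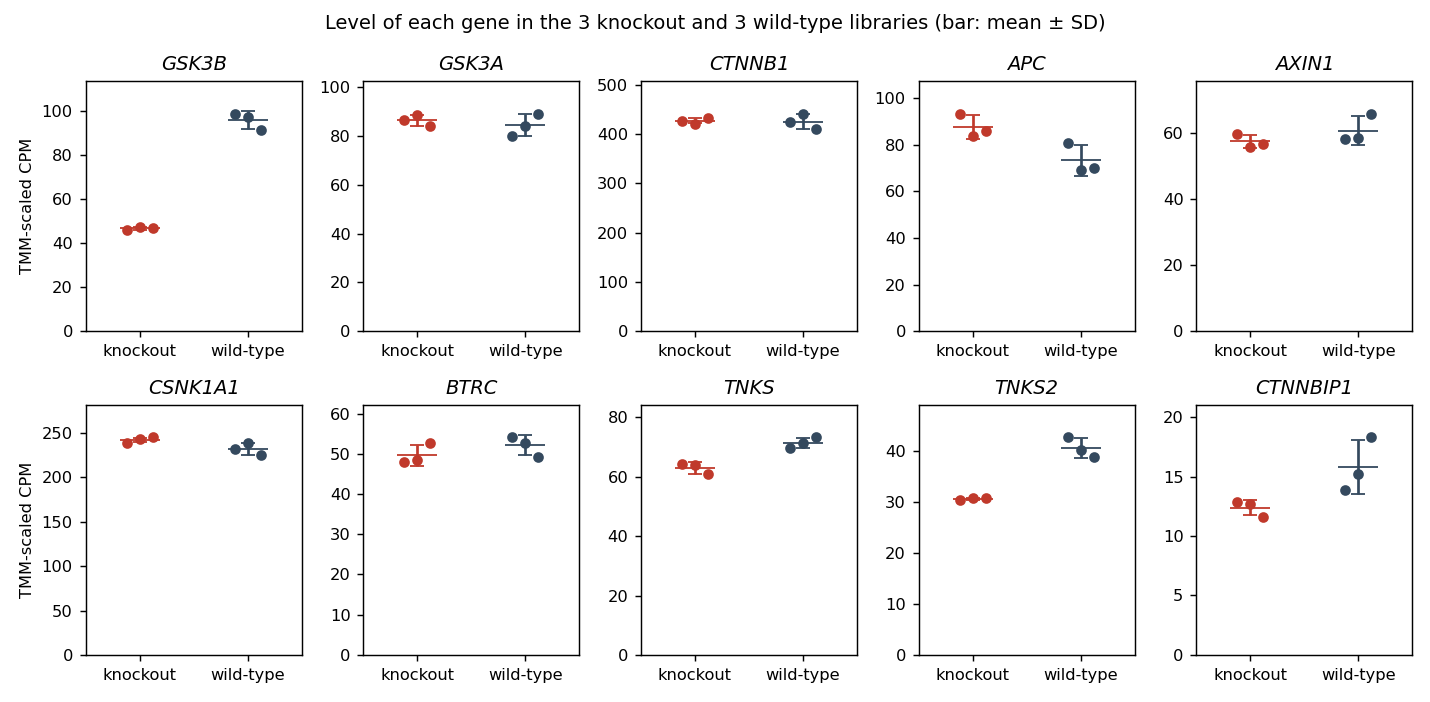
TMM-scaled CPM of each member in every library, with knockout libraries left of wild-type libraries; points are libraries 1 to 3 from left to right, and bars are the mean ± SD. The GSK3B points of the groups are far apart (46.0 to 47.5 CPM in knockout, 91.4 to 99.0 CPM in wild type), while those of GSK3A and CTNNB1 overlap.

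The promoter sequence of GSK3B is shown because this is the targeted gene and the member with the largest fold change. The 250 bases before its RefSeq start (GRCh38.p14, minus strand, chr3:120094448-120094697) are given with each CG dinucleotide in capitals.
GSK3B: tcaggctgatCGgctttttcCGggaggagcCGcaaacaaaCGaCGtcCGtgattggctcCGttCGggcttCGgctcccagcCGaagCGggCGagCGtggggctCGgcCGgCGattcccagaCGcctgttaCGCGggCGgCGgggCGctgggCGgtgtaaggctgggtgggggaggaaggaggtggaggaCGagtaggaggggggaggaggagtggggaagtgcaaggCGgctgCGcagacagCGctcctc
This stretch holds 27 CG dinucleotides at a GC content of 68.8%, where the median over 35116 RefSeq promoters is 11 CG dinucleotides and 58.0% GC. Promoter entries were found for 8 of the 10 members, not for BTRC or TNKS, with 10 starts in all, APC and CSNK1A1 being entered more than once. Their GC content ran from 38.0% at a CSNK1A1 start to 81.2% at CTNNBIP1. The shares over all promoters given next were not matched for GC content. The TCF/LEF motif, CTTTG with A or T in each of the next 2 places, was searched on both strands and matched 0 of the 10 member promoters, against 12% of all promoters. The palindromic E-box CACGTG, the motif that MYC and other factors of its class bind, matched 2 of the 10, against 6.34% of all promoters. Both lie in promoters of members that passed the test, one higher in the knockout and the other lower. GSK3B and CTNNBIP1 also passed, and their stretches hold no E-box. A link between the motif and the change was not tested. Both matches are shown with 12 bases on each side and the E-box in capitals, at the second APC start (chr5:112737827-112737856, plus strand) and at TNKS2 (chr10:91798367-91798396, plus strand).
APC: tgggtgtgggcgCACGTGaccgacatgtgg
TNKS2: gcgggacgacgtCACGTGcgctcccggggc
The first base of the E-box lies 46 bases before this RefSeq start of APC and 47 bases before the RefSeq start of TNKS2. By GENCODE 29, the annotation used for gene positions here, both genes begin further upstream, so both stretches lie inside the annotated gene. A match is a description of the letters and shows no binding.

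GSK3B, the kinase gene that the series targets, lies on chromosome 3 (119821323 to 120094417, minus strand, hg38). It had 46.0, 47.5 and 47.1 CPM in knockout replicates 1 to 3, against 99.0, 97.6 and 91.4 CPM in wild-type replicates 1 to 3. The groups lay far apart and each was tight, with a standard deviation of 1.69% of the mean in knockout and 4.22% in wild-type libraries. The knockout level was 48.8% of wild type (95% interval 45.4 to 52.4), which is -1.04 ± 0.05 as a log2 fold change (SE, 3 libraries in each group; edgeR, adjusted p = 1.88e-12). Only 0.75% of all tested genes had a log2 fold change as low as or lower than that of GSK3B. The knockout libraries still held 1509 to 1567 GSK3B counts, and the tables give 1 value per gene with no split by exon. RNA at 48.8% of wild type does not show by itself that intact GSK3B was lost, and knockout is used here as the label of these libraries.

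GSK3A encodes the second GSK3 kinase, which can phosphorylate many of the same proteins. It had 86.4, 88.7 and 84.1 CPM in knockout libraries and 80.1, 84.2 and 89.2 CPM in wild-type libraries, so the groups overlapped. Its level was 102% of wild type (95% interval 95.3 to 110), which did not pass (edgeR, adjusted p = 0.731). Exons of GSK3A share 479 bp, 11.6% of their length, with another annotated gene, AC006486.1, which has no entry in the count tables. The ratio of GSK3B to GSK3A counts needs no scaling between libraries. It was 0.532, 0.535 and 0.560 in knockout libraries, against 1.24, 1.16 and 1.02 in wild-type libraries, a difference of -1.07 on the log2 scale. Every knockout library lay below every wild-type library (two-sided exact permutation test, p = 0.1, the lowest p possible with 3 against 3). Per kilobase of annotated exon the mean ratio was 0.274 in knockout and 0.577 in wild-type libraries, so GSK3A counts per length exceeded those of GSK3B in both groups.

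The genes on either side of GSK3B were examined to see whether the fall was shared along chromosome 3. Of the 10 nearest tested genes, 5 on each side, 1 fell and 1 rose, and their median log2 fold change was 0.04. Of all tested genes 7.18% fell and 6.36% rose. ADPRH, an ADP-ribosylhydrolase family gene 231 kb away, had 8.28, 6.75 and 6.67 CPM in knockout and 11.2, 10.7 and 9.79 CPM in wild-type libraries (log2 fold change -0.55 ± 0.11 SE; edgeR, adjusted p = 0.00165). TIMMDC1, 296 kb away on the same side, stood at -0.14 and did not pass (edgeR, adjusted p = 0.0822). After the correction for GC content described below, TIMMDC1 stood at -0.15 and passed (edgeR, adjusted p = 0.0208). COX17, a copper chaperone gene of cytochrome oxidase 144 kb away and nearer to GSK3B, stood at 0.06 on the log2 scale and did not pass. On the other side LRRC58 rose by 0.21 on the log2 scale (edgeR, adjusted p = 0.0115), although its groups overlapped. It did not pass without knockout replicate 1 or without wild-type replicate 2 or 3 (adjusted p = 0.0933, 0.0718 and 0.350). STXBP5L had the highest fold change of the 10, at 1.10 ± 0.39 (SE), from under 1 CPM in every library, and did not pass (edgeR, adjusted p = 0.0617).

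**Figure D2:**
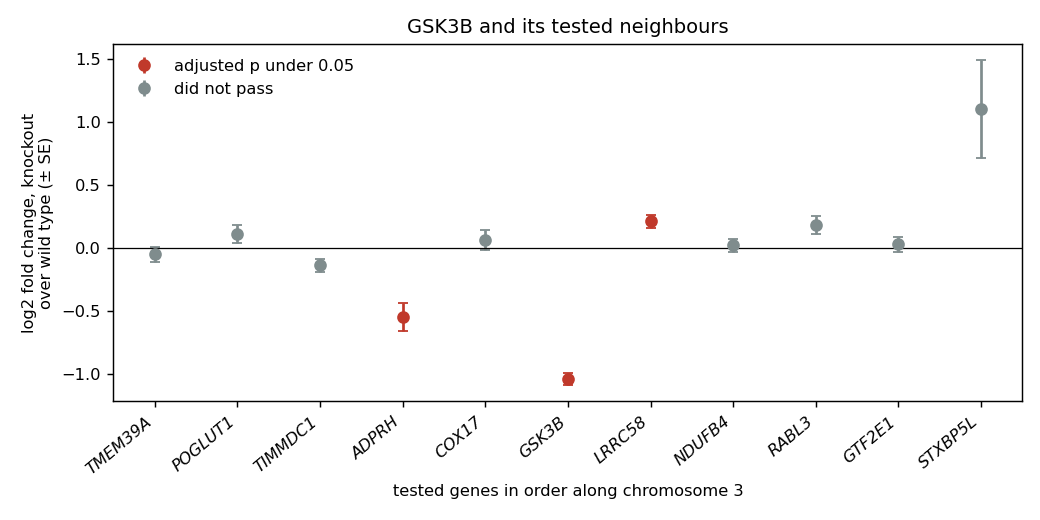
Log2 fold change (knockout over wild type, ± SE) of GSK3B and of the 5 nearest tested genes on each side, in order along chromosome 3. GSK3B, at -1.04, is the lowest, and the genes on either side of it stand at 0.06 and 0.21.

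CTNNB1, which encodes beta-catenin, did not differ detectably at the RNA level. It had 427, 421 and 433 CPM in knockout libraries and 425, 441 and 409 CPM in wild-type libraries. The groups overlapped, and the knockout level was 101% of wild type (95% interval 95.7 to 106; edgeR, adjusted p = 0.915). With at least 13558 counts per library, the interval of the change reached from -0.06 to 0.08 on the log2 scale.

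Of the scaffolds, APC rose and AXIN1 did not pass. APC, the large tumour suppressor protein that binds beta-catenin and AXIN, lies on chromosome 5 (112707498 to 112846239, plus strand). It had 93.4, 83.9 and 85.9 CPM in knockout libraries, against 81.0, 69.2 and 69.9 CPM in wild-type libraries. The groups did not overlap, with the lowest knockout library close above wild-type replicate 1. APC stood at 120% of wild type (95% interval 110 to 130; log2 fold change 0.26 ± 0.06 SE, 3 libraries a group; edgeR, adjusted p = 0.00413). Without wild-type replicate 2 it did not pass (0.22, adjusted p = 0.0525). Without knockout replicate 1, its highest library, it passed only narrowly (0.21, adjusted p = 0.0499). Exons of APC share 230 bp, 1.85% of their length, with AC008575.1, an annotated gene on the same strand. AXIN1, the scaffold that holds GSK3, CK1 and beta-catenin together, had 59.5, 55.7 and 56.6 CPM in knockout libraries and 58.0, 58.3 and 65.7 CPM in wild-type libraries. Its highest value was that of wild-type replicate 3, and its level was 94.4% of wild type (95% interval 87.1 to 102; edgeR, adjusted p = 0.364).

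The priming kinase and the ligase subunit did not pass either. CSNK1A1 had 239, 243 and 245 CPM in knockout and 232, 239 and 225 CPM in wild-type libraries, 104% of wild type (95% interval 99.1 to 110; edgeR, adjusted p = 0.279). Its groups touched without overlapping, as those of 31.3% of all tested genes and of 6 of the 10 members did not overlap. Exons of CSNK1A1 share 2886 bp, 37.4% of their length, with AC021078.1, an annotated gene on the same strand with no entry in the count tables. BTRC had 47.9, 48.4 and 52.6 CPM in knockout and 54.1, 52.8 and 49.3 CPM in wild-type libraries. These overlapped, at 95.4% of wild type (95% interval 87.8 to 104; edgeR, adjusted p = 0.475).

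Both tankyrase genes fell, TNKS2 to 75.6% and TNKS to 88.2% of wild type. Their enzymes add chains of ADP-ribose to AXIN, which the ligase RNF146 then marks for destruction. TNKS2, on chromosome 10 (91798312 to 91865276, plus strand), had 30.4, 30.8 and 30.7 CPM in knockout libraries, against 42.6, 40.2 and 38.8 CPM in wild-type libraries. The knockout values had an SD of 0.587% of their mean, and all lay below the wild-type values. The 95% interval of its level was 69.3% to 82.4% of wild type (log2 fold change -0.40 ± 0.06 SE, 3 libraries a group; edgeR, adjusted p = 7.05e-05). Its adjusted p was at most 0.00106 in the 17 alternative fits.

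TNKS, on chromosome 8, had 64.4, 63.9 and 60.9 CPM in knockout libraries, against 69.8, 71.3 and 73.3 CPM in wild-type libraries, again with no overlap. The 95% interval of its level was 82.2% to 94.7% of wild type (log2 fold change -0.18 ± 0.05 SE; edgeR, adjusted p = 0.0162). TNKS shares 607 bp of exon, 4.28% of its length, with the antisense gene AC021242.3. The call was lost without knockout replicate 2, without knockout replicate 3 and without wild-type replicate 2 (adjusted p = 0.0550, 0.104 and 0.0661). The ratio of TNKS2 to TNKS counts was 0.473, 0.482 and 0.504 in knockout and 0.610, 0.563 and 0.530 in wild-type libraries. All 3 knockout ratios were below the wild-type ratios, a difference of -0.22 on the log2 scale (two-sided exact permutation test, p = 0.1, again the lowest possible). RNF146, at 0.01 on the log2 scale, did not pass.

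CTNNBIP1, which encodes the beta-catenin inhibitor ICAT, lies on chromosome 1 (9848276 to 9910336, minus strand) and had the fewest counts of the members. It had 12.9, 12.7 and 11.6 CPM in knockout libraries, against 13.9, 15.2 and 18.3 CPM in wild-type libraries. The groups did not overlap, but the wild-type libraries were spread, with an SD of 14.4% of the mean and wild-type replicate 3 the highest. CTNNBIP1 stood at 78.3% of wild type (95% interval 68.1 to 90.1; log2 fold change -0.35 ± 0.10 SE; edgeR, adjusted p = 0.0181). Without wild-type replicate 3, the library with the highest sum of fibroblast markers, the log2 fold change was -0.23 and did not pass (adjusted p = 0.0984); whether those markers play a part was not tested. It also did not pass without knockout replicate 2 or 3 (adjusted p = 0.0505 and 0.0921). Exons of CTNNBIP1 share 424 bp with an antisense gene, AL357140.1, and since no strand setting is given, reads from this pair cannot be told apart.

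**Figure D3:**
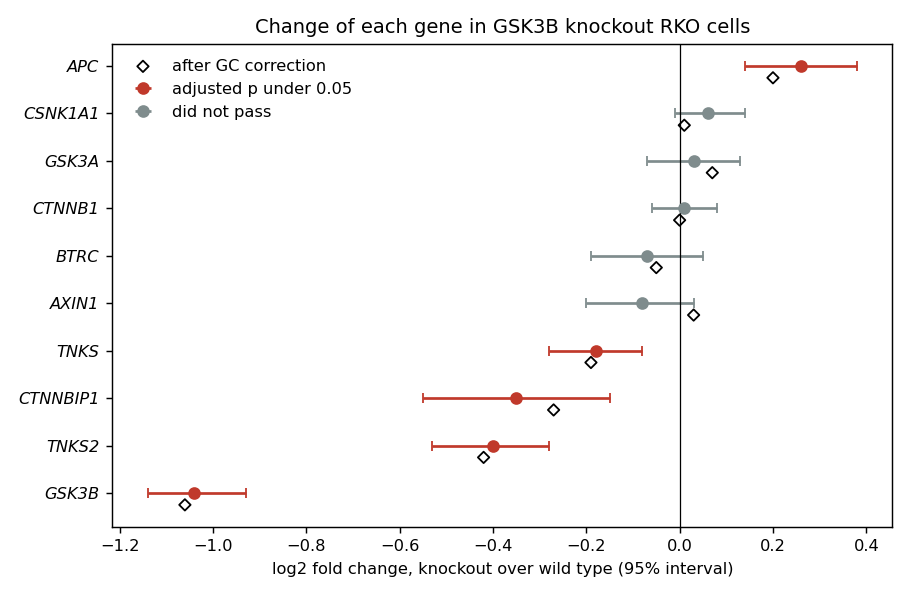
Log2 fold change of each member in knockout over wild-type libraries with its 95% interval from edgeR (n = 3 per group), red where the adjusted p was under 0.05; open diamonds are the values after a correction for GC content. GSK3B stands at -1.04, TNKS2, CTNNBIP1 and TNKS at -0.40, -0.35 and -0.18, and APC at 0.26, with intervals that do not reach 0.

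Fold changes moved with the GC content of transcripts over the whole series. The median log2 fold change was 0.08 in the fifth of tested genes with the lowest GC content (up to 41.1%) and -0.07 in the fifth with the highest (58.4% and above). Transcripts of the members spanned this range, with CSNK1A1 at 39.4%, APC at 39.6%, CTNNBIP1 at 57.1% and AXIN1 at 63.8%, and the other called members GSK3B, TNKS2 and TNKS between 42.1% and 43.3%. After a correction for GC content the same number of members passed, 4 lower and 1 higher, where 21.1% of all tested genes did, 7.4% lower and 13.7% higher. The log2 fold change of APC was then 0.20 (edgeR, adjusted p = 0.00119), that of CTNNBIP1 -0.27 (adjusted p = 0.0238) and that of TNKS2 -0.42 (adjusted p = 4.01e-07). AXIN1 stood at 0.03 and CSNK1A1 at 0.01, and neither passed. With this correction and without wild-type replicate 3, CTNNBIP1 stood at -0.18 and did not pass (adjusted p = 0.195).

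Levels of different genes were compared as CPM per kilobase of annotated exon. In knockout libraries CTNNB1 was the highest at 35.8 ± 0.491, followed by CSNK1A1 at 31.4 ± 0.342 and GSK3A at 20.9 ± 0.555 (SD, n = 3). In wild-type libraries these 3 held the same places, at 35.6 ± 1.33, 30.1 ± 0.882 and 20.5 ± 1.11. GSK3B took the seventh place in knockout libraries, at 5.74 ± 0.0968, and the fourth in wild-type libraries, at 11.8 ± 0.497. AXIN1, BTRC and APC were in the fourth to the sixth place in knockout libraries, at 7.65, 7.50 and 7.05, with ranges that overlapped between neighbours. In wild-type libraries AXIN1 and BTRC overlapped (8.10 and 7.87), as did TNKS2 and APC (6.58 and 5.90) and TNKS and CTNNBIP1 (5.04 and 4.73). CTNNBIP1 was the lowest in both groups, at 3.71 ± 0.200 in knockout and 4.73 ± 0.684 in wild-type libraries. The level of CTNNB1 depends on the length used, since its annotated exons add up to 11.93 kb and its longest transcript has 4888 bp. By the longest transcript TNKS stood above GSK3B in knockout libraries, at 6.55 against 6.07 CPM per kilobase.

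**Figure D4:**
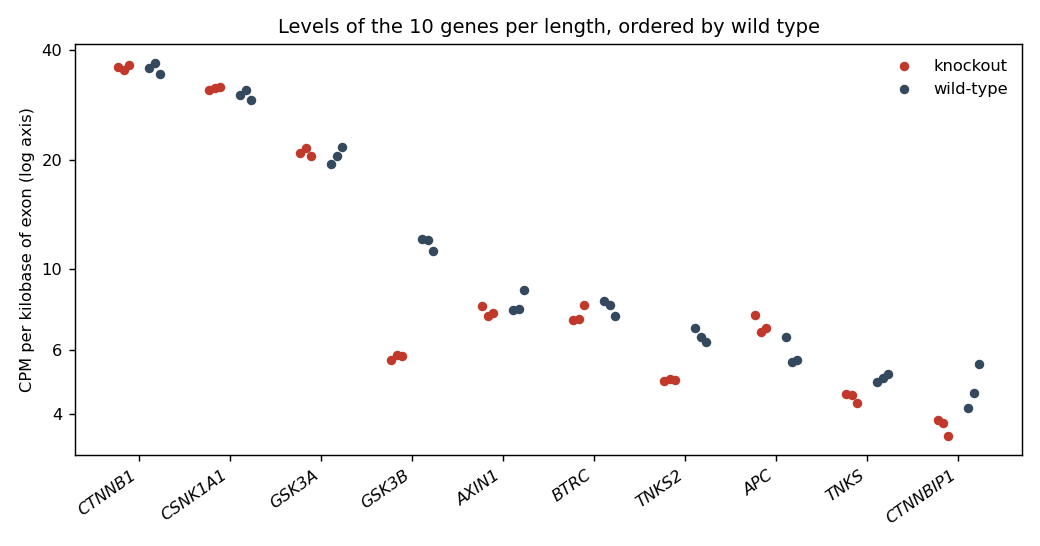
CPM per kilobase of annotated exon (log axis) of the 10 genes, one point per library, knockout left of wild type, with genes ordered by their wild-type mean. GSK3B lies below AXIN1, BTRC and APC in the knockout libraries and above them in the wild-type libraries, while CTNNB1, CSNK1A1 and GSK3A keep the highest places in both groups.

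Genes whose profile over the 6 libraries was most like that of GSK3B were found by the root mean square difference in log2 CPM, taken relative to the wild-type mean, over the 11229 genes that averaged 5 CPM or more. They were COBL (0.06), RASSF8 (0.0761), TP53I11 (0.0808), IGFBP2 (0.0924) and PLK2 (0.0935). COBL had 5.94, 6.25 and 5.50 CPM in knockout and 12.1, 12.3 and 11.9 CPM in wild-type libraries. TP53I11 had the lowest log2 fold change of these 5 genes, -1.10, beside -1.04 for GSK3B, and IGFBP2 averaged 7.81 CPM in knockout and 15.6 CPM in wild-type libraries. They lie on chromosomes 7, 12, 11, 2 and 5.

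Other genes of the pathway were described from 7 lists of 109 distinct genes, of which 84 were tested, 12 fell and 2 rose. That is 16.7% of those tested, beside 13.5% of all tested genes. The split of directions depended on the processing, with 13 lower and 8 higher after the GC correction and 17 lower and 1 higher with scaling by library size alone. The split over all tested genes moved too. It was 7.4% lower and 13.7% higher after the GC correction, and 1229 genes lower and 649 higher with library size alone. Of 17 tested partners of the complex and CK1 kinases 2 fell, 1 rose and 14 did not pass, with a list median of 0.01 on the log2 scale. AXIN2, the inducible paralog of AXIN1, had 3.99, 4.10 and 2.52 CPM in knockout and 5.41, 5.50 and 5.07 CPM in wild-type libraries (log2 fold change -0.59; edgeR, adjusted p = 0.0165). It did not pass without knockout replicate 3, its lowest library, or without wild-type replicate 2 (adjusted p = 0.113 and 0.0714). CSNK1E, the CK1 epsilon gene, fell by 0.20 and PPP2CA, a catalytic subunit of the phosphatase PP2A, rose by 0.18 on the log2 scale. After the GC correction CSNK1E stood at -0.12 and still passed (edgeR, adjusted p = 0.00617), and without wild-type replicate 3 as well it stood at -0.10 (adjusted p = 0.0267). With scaling by library size alone 5 of this list fell and 1 rose. Without wild-type replicate 1, 5 fell and 2 rose.

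Of 10 tested partners of the ligase and of the tankyrases 0 passed edgeR, DESeq2 or limma-voom, where 13.5% of all tested genes passed edgeR. With unadjusted p-values under 0.05 as the limit, 0 were lower and 2 higher in edgeR. The share of all tested genes within this looser limit was not counted, so these counts have no background beside them. Without wild-type replicate 1 the adjusted test gave 1 higher. SKP1, the adaptor of the SCF ligase, had 209 ± 6.95 CPM in knockout and 204 ± 12.5 CPM in wild-type libraries (SD, n = 3). FBXW11, the paralog of BTRC, stood at -0.00 ± 0.05 (SE) on the log2 scale. USP7, a deubiquitinating enzyme gene, stood at 0.08, and after the GC correction stood at 0.10 and passed (adjusted p = 0.0132).

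Of 15 tested regulators of GSK3 3 fell, 0 rose and 12 did not pass, where 13.5% of all tested genes passed. FRAT1, which binds GSK3 and keeps it from AXIN, had 4.81, 4.04 and 4.33 CPM in knockout and 5.77, 6.51 and 6.55 CPM in wild-type libraries (log2 fold change -0.51; edgeR, adjusted p = 0.00996). FRAT1 did not pass without knockout replicate 2 or without wild-type replicate 2 (adjusted p = 0.0603 and 0.0517). DVL1, a Dishevelled gene that relays Wnt receptor signals to the complex, fell by 0.25 on the log2 scale, and after the GC correction stood at -0.13 and still passed (edgeR, adjusted p = 0.0161). After the GC correction 4 of the 15 regulators were lower and 4 higher, where 7.4% of all tested genes were lower and 13.7% higher. Without that correction the count of 3 called fell to 1 without knockout replicate 2 or without wild-type replicate 2, and was 5 without wild-type replicate 3.

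Among 9 relatives and adhesion partners of beta-catenin 3 were tested and 0 passed edgeR or limma-voom, where 13.5% of all tested genes passed edgeR. CTNNA1, the alpha-catenin gene, had 289, 293 and 300 CPM in knockout and 309, 320 and 316 CPM in wild-type libraries. It stood at -0.10 on the log2 scale and passed DESeq2 (adjusted p = 0.0471) but not the main edgeR fit (adjusted p = 0.0567). By unadjusted p-values under 0.05, 2 were lower and 0 higher in edgeR, a limit at which the share of all tested genes was not counted. With scaling by library size alone 2 passed the adjusted test. CTNNA1 also passed edgeR without wild-type replicate 1 or 3 (adjusted p = 0.0214 and 0.0178). With a filter of 1 CPM in 3 libraries it passed too (adjusted p = 0.0404). After the GC correction it stood at -0.07 and passed (edgeR, adjusted p = 0.0437), but not without wild-type replicate 3 as well (0.0937). CTNNAL1, an alpha-catenin relative, had 96.8 ± 0.763 CPM in knockout and 96.9 ± 9.22 CPM in wild-type libraries (SD, n = 3). The cadherin genes CDH1 and CDH2 were listed at 0 in all 6 libraries, and JUP, the plakoglobin gene, had at most 6 counts.

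Of 16 tested nuclear partners of beta-catenin 0 passed edgeR, DESeq2 or limma-voom, where 13.5% of all tested genes passed edgeR. By unadjusted p-values under 0.05 in edgeR 2 were lower and 0 higher, again with no share of all tested genes counted at that limit. After the GC correction 1 was higher, where 13.7% of all tested genes were, and without wild-type replicate 1, 1 was lower. TBL1XR1 had 192 ± 5.45 CPM in knockout and 191 ± 5.17 CPM in wild-type libraries, and the corepressor gene TLE5 had 163 ± 9.48 CPM in knockout and 175 ± 8.11 CPM in wild-type libraries (SD, n = 3). Of 13 tested Wnt receptors and their ligases 1 fell and 1 rose, where 7.18% of all tested genes fell and 6.36% rose. FZD1, a Frizzled receptor gene, had 9.20, 10.1 and 8.98 CPM in knockout and 12.5, 14.1 and 12.9 CPM in wild-type libraries (log2 fold change -0.48; edgeR, adjusted p = 0.00133). LRP6, the co-receptor gene, rose by 0.17 on the log2 scale (edgeR, adjusted p = 0.0410). It did not pass after the GC correction, at 0.12 (adjusted p = 0.0712), or with scaling by library size alone (0.0728). Nor did it pass without knockout replicate 1 or 2 or wild-type replicate 2 (0.148, 0.206 and 0.179). After the GC correction 2 of the 13 receptors and ligases were lower and 0 higher, where 7.4% of all tested genes were lower and 13.7% higher.

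Of 23 listed Wnt/beta-catenin target genes 14 were tested, of which 7 fell, 0 rose and 7 did not pass. Of all tested genes 7.18% fell and 6.36% rose. The list was chosen with earlier results of these data known, so this contrast is a description and no independent test. AXIN2, 1 of the 7, is also in the list of complex partners. The list median was -0.27 on the log2 scale, beside 0.00 for all tested genes. After the GC correction the list median was -0.19 and 5 were lower, where 7.4% of all tested genes were lower. BMP4 and NOTUM had the largest log2 fold changes, -0.99 and -0.70, at levels of at most 4.62 CPM in any library. NOTUM passed only narrowly (edgeR, adjusted p = 0.0497), and its adjusted p was above 0.05 in DESeq2, limma-voom, the GC-corrected fits and each of the 6 fits that left out 1 library. NKD2, an antagonist of the pathway, had 9.26, 10.1 and 9.32 CPM in knockout and 12.2, 11.8 and 12.1 CPM in wild-type libraries, and fell by 0.33 on the log2 scale (edgeR, adjusted p = 0.0207). It did not pass after the GC correction, at -0.21 (adjusted p = 0.111), or without knockout replicate 1 or 3 or wild-type replicate 2 (0.0893, 0.0805 and 0.0569). CCND1, the cyclin D1 gene, stood at 0.00 ± 0.04 (SE) and did not pass. The count of targets called was 4 without knockout replicate 3 or without wild-type replicate 2. Without wild-type replicate 3 it was 7.

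**Figure D5:**
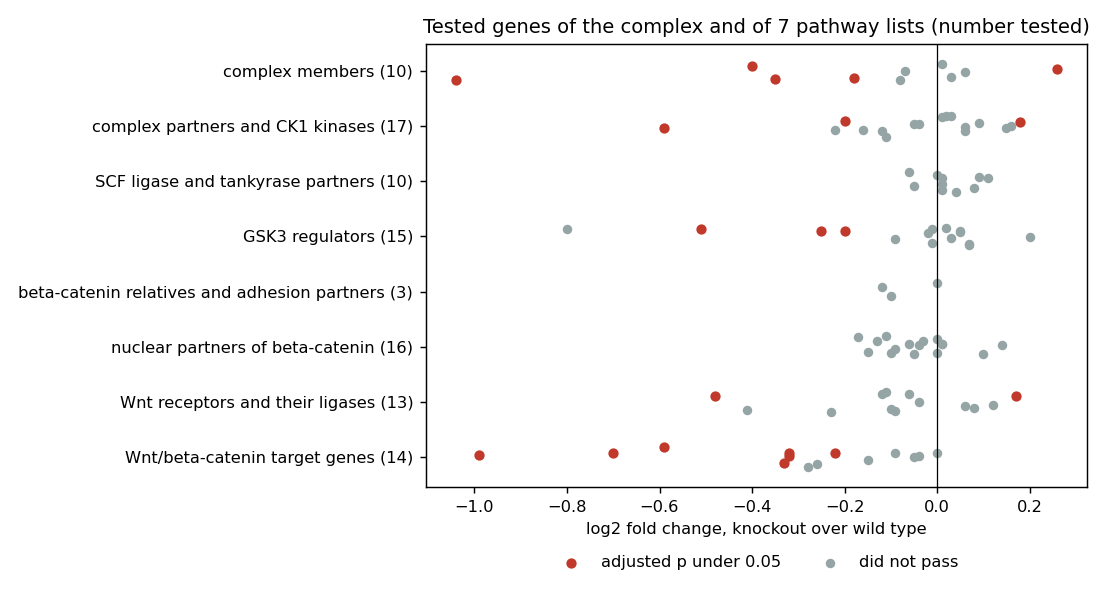
Log2 fold change (knockout over wild type) of each tested gene of the complex and of the 7 pathway lists, with the number tested beside each name; red points had an adjusted p under 0.05 in edgeR. In the list of target genes 7 of 14 points are red and all 7 lie below 0, while the ligase and nuclear partners hold no red point. Of all tested genes 13.5% had an adjusted p under 0.05. The lists were chosen with earlier results of these data known.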

How the data were processed

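The authors deposited raw whole-number counts for each gene symbol in 1 table per library. Per the labels' protocols, polyadenylated RNA was sequenced as paired-end reads of 150 bp. Per the submitters' processing notes, reads were handled on hg38, with TopHat, limma and edgeR among the programs. The counting program, its annotation and strand setting, and its handling of ambiguous reads, which decide how shared exons were counted, were not stated in those sources.

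Groups came from the sample titles. The chi-square per degree of freedom between libraries of a group was 3.16 to 9.71, and each library counted as 1 replicate. The test was edgeR 4.0.16 (R 4.3.3) with filterByExpr (minimum count 10, minimum total 15), TMM scaling, a robust quasi-likelihood fit of group alone, and adjustment over 14409 genes. Each SE is the fold change divided by the root of its F. Poisson error was at most 5.08% of a member's lowest count. Symbols were matched to GENCODE 29 (26218 of 28278). The GC correction, a spline of 5 degrees of freedom in each library entered as an offset, used the longest transcript (known for 95.9% of tested genes).

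The members and lists were chosen with earlier results of these data known. Named genes were the members, up to 4 called genes of each list by size of change (or its 2 most abundant), 5 neighbours of GSK3B on each side and the 5 nearest profiles. NKD1, EPHB2 and MYC were the other called targets, at -0.32, -0.32 and -0.22 on the log2 scale (edgeR, adjusted p = 0.00666, 9.20e-04 and 6.28e-05). One called gene of the list of GSK3 regulators is not reported here. FBXW11, RNF146, CCND1, JUP, EPCAM, PDGFRB, COL1A2, COL3A1, DCN and the cadherins were named after their values were seen.

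Alternatives were RLE scaling, library size alone, genes with 1 count or more, genes at 1 CPM or more in 3 libraries, the replicate block, omission of each library, DESeq2 1.42.0, limma-voom (3.58.1), no robust option, and the GC correction alone or with the block. The GC correction without wild-type replicate 3, the promoter motifs, the ratios other than GSK3B to GSK3A and the GC-corrected ratio were chosen after seeing the data.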

Additional observations from a re-analysis of the deposited data

How the results depend on the processing

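Of all genes, 1951 passed the main test. The count was 3044 with the GC correction (1066 lower, 1978 higher), 3060 with that correction and the replicate block, and 950 to 2531 without 1 library. The share of called genes that were higher was 47.0%, but 65.0% with the GC correction and 34.6% with scaling by library size alone. Members called numbered 5 and ran from 3 to 5 without 1 library, and the pathway lists gave 14, or 8 to 20. The difference in GSK3B to GSK3A ratio ran from -1.14 to -1.01. By the mean of the ratios within each wild-type library, CTNNB1 stood 7.64 times above CTNNBIP1 per kilobase of exon, and 16.8 times with the longest transcript.

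Same-numbered libraries did not deviate together (correlations 0.0709, -0.00406 and 0.0306). Whether they share a culture or a preparation is not in the labels and cannot be told from these correlations. With the replicate block 2193 genes passed, among them the same 5 members, and NOTUM did not pass.

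The log2 fold changes that changed sign belonged to genes that did not pass, and the cause was not tested. Without 1 library, GSK3A ran from -0.01 to 0.07, CTNNB1 from -0.02 to 0.04, SKP1 from -0.01 to 0.08, CTNNAL1 from -0.07 to 0.06 and TBL1XR1 down to -0.01. By library size alone CTNNB1 and TBL1XR1 were at -0.01, and CTNNAL1 was at 0.00 with the block and with limma-voom. With the GC correction, with or without the block, AXIN1 was at 0.03 and TBL1XR1 at -0.08. With that correction and without wild-type replicate 3, CTNNB1 was at -0.00, AXIN1 at 0.05, SKP1 at -0.01 and TBL1XR1 at -0.05.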

Other observations

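The knockout libraries varied less among themselves than the wild-type libraries in most members, as they did in most tested genes. The coefficient of variation was lower in knockout than in wild-type libraries for 8 of the 10 members, and for 62.9% of all 14409 tested genes. BTRC and TNKS were the members with the higher value in knockout libraries, 5.29% and 3.04% there against 4.74% and 2.40% in wild-type libraries.

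Ratios of counts within a library gave the balance between members without scaling. APC counts were 1.57, 1.51 and 1.52 times those of AXIN1 in knockout libraries, against 1.40, 1.19 and 1.06 times in wild-type libraries. All 3 knockout libraries lay above the wild-type libraries, a difference of 0.34 on the log2 scale (two-sided exact permutation test, p = 0.1, the smallest possible with 3 against 3). The transcripts of this pair differ in GC content, at 39.6% for APC and 63.8% for AXIN1, and in the GC-corrected fit the difference between their log2 fold changes was 0.17, against 0.34 without the correction. CTNNBIP1 counts were 0.0302, 0.0300 and 0.0268 of those of CTNNB1 in knockout libraries, against 0.0326, 0.0346 and 0.0448 in wild-type libraries, with the widest step at wild-type replicate 3.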
